A study of Homo sapiens with 6 samples.

Results

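Annotated GC-AG introns are introns that begin with GC instead of GT and end in the usual AG. They were chosen here as every annotated junction with a GC-AG motif code in the junction table of at least 1 library. That gave 3870 junctions of 780566 in all, or 1.59% of the 242682 annotated ones. The libraries were made from poly(A)+ RNA of K562, a human chronic myeloid leukaemia line. A wild-type U2AF1 knock-in was the genotype of 3 libraries, and U2AF1 S34F was that of the other 3 (below, WT and S34F). S34F is a serine to phenylalanine substitution. Whether each genotype was a single clone, or the libraries came from separate cultures, is not given in the sources used here. The p-values therefore measure only the spread between these libraries, which may be technical.

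The first bases of an intron form the 5′ splice site, or donor, which U1 snRNA recognises by base pairing. GC at the first intron positions leaves a mismatch with U1 snRNA, and the other bases of GC donors tend to match it closely. GC-AG is the commonest noncanonical intron type that the major spliceosome removes, and GC donors often take part in alternative splicing. The AG at the far end of the intron is the 3′ splice site, or acceptor, and is contacted by U2AF1. The S34F substitution lies in a zinc finger of U2AF1 and is known to alter which acceptors are used, so the acceptor side of GC-AG introns is read separately from the donor side below.

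Each junction has a count of uniquely mapped reads that cross it, with 0 taken where a table did not list it. Positions are those of the files, in hg19 per the submitters' processing notes. A donor or acceptor is given as the intron base at that end, so that a donor on the minus strand has the higher coordinate. Gene names, exon annotation, the bases around the splice sites, the K562 marker genes and the level of U2AF1 itself were not analysed here. The introns are therefore identified by position and length.

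The libraries held between 18074706 and 39279169 unique spliced reads, S34F replicate 2 being the shallowest and S34F replicate 3 the deepest. Replicates of a genotype differed by more than sampling noise, with a chi-square per degree of freedom over GC-AG junctions from 4.29 to 15.5. No pair of libraries was therefore counted as 1 sample.

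The GC-AG introns lay on both strands, 1866 on the plus and 2004 on the minus strand. They used 3561 distinct GC donors and 3825 distinct acceptors, so most GC donors led to a single annotated intron. Their median length was 1260.5 nt, with quartiles of 431 and 4031 nt. The 237090 annotated GT-AG introns had a median length of 1688 nt, with quartiles of 543 and 4989 nt.

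Reads over GC-AG introns were few and uneven. A unique read was seen for 3155 of the 3870 junctions, and the other 715 were listed without one. A unique read in each of the 6 libraries was seen for 1467. The median was 6 reads over the 6 libraries, against 45 for annotated GT-AG junctions. Fewer than 10 reads were counted for 2135 junctions and at least 1000 for 210. Of the 1046162 unique reads over GC-AG introns, the 10 most-read junctions held 28.2%. Multi-mapped reads made up 9.61% of all reads over GC-AG junctions and 6.82% of those over all annotated junctions, so that unique counts left out more of the GC-AG signal. That multi-mapped share was 9.62% ± 0.259 (SD, n = 3) in WT and 9.74% ± 0.729 in S34F, and the groups overlapped.

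A GC donor can compete with a GT donor for the same acceptor. At least 1 read from such a GT donor was seen for 2138 of the 3870 introns, and none for 1732. For each of the 2138, the GT donor with the most reads at that acceptor is called the major GT donor. It lay within 30 nt of the GC donor for 227 introns, 31 to 500 nt away for 586 and over 500 nt away for 1325. The distances separate different kinds of event: a GT donor close by shifts the end of 1 exon, whereas a distant one generally belongs to another exon. In 734 introns the GC donor ended an exon of at most 500 nt that reads joined to the major GT donor upstream. For this, 1 read over the 6 libraries was enough, and the joining junction could be unannotated. These exons had a median length of 120 nt, and the length was a multiple of 3 for 266 of them, or 36.2%.

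Among the 227 introns with a nearby major GT donor, 1 spacing dominated. The GT donor lay exactly 4 nt downstream of the GC donor in 86 of them, or 37.9%. It lay 4 nt upstream in 3. The next fixed distance examined, 9 nt downstream, held 12 introns, or 5.29%. Annotated GT-AG introns were measured in the same way, each against the most-read other GT donor of its acceptor. Of 7012 such introns with a GT donor within 30 nt, 719 had it 4 nt downstream, or 10.3%, and 155 had it 9 nt downstream, or 2.21%. The offset was not a multiple of 3 for 161 of the 227 introns, those at 4 nt included, and was a multiple of 3 for 66. An offset that is not a multiple of 3 changes the reading frame only within coding sequence. Whether these donors lie in coding sequence was not analysed. The offset describes where reads were aligned, and whether the alignment itself favours a spacing was not tested.

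**Figure D1:**
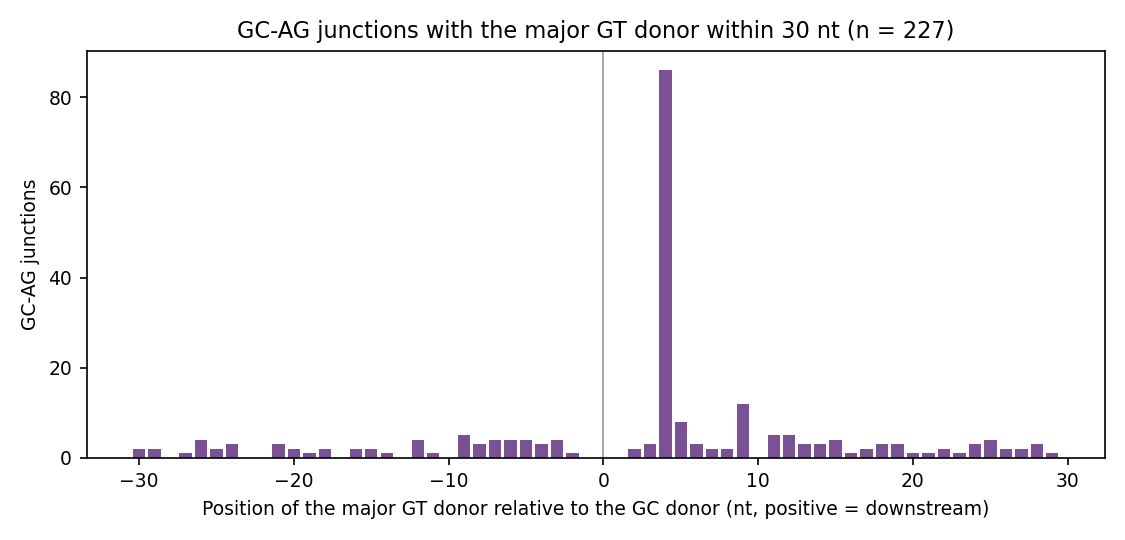
Number of annotated GC-AG junctions (vertical axis) by the position of the major GT donor of the same acceptor relative to the GC donor (horizontal axis, nt, positive values downstream), for the 227 junctions where it lies within 30 nt. The bar at 4 nt downstream holds 86 junctions and stands above every other offset.

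Use of a GC donor was measured as its share of reads at the acceptor, that is GC-AG reads over the sum of those reads and reads of GT-AG junctions into the same acceptor. Shares were tested where the acceptor had at least 20 such reads in every library and each side had at least 10 reads over all libraries. This left 514 of the 3870 introns, at 511 acceptors. The mean share over the 6 libraries had a median of 11.04%. It was under 10% for 249 introns, between 10% and 90% for 156 and over 90% for 109. Over all 47891 junctions tested in this way the median was 22.8%, and 22.6% of them lay between 10% and 90%, against 30.4% of the GC-AG introns. The 47891 include unannotated junctions. The 34723 annotated GT-AG junctions among them had a median of 86.9%, and 27.6% of them lay between 10% and 90%. The GC donor was the major one, with a share over 50%, at 175 of the 514.

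Median shares were low at each distance of the GT donor and far apart between annotated and unannotated GT junctions. The median share was 17.1% for the 63 tested introns with a major GT donor within 30 nt, 11.4% for the 169 with one at 31 to 500 nt and 10.02% for the 282 with one farther off. Where the major GT junction was annotated (430 introns) the median share was 7.25%, and where it was unannotated (84 introns) it was 97.0%. The major GT junction was itself picked by its reads, so this split is not independent of the share. Of the 86 introns with a GT donor 4 nt downstream, 23 could be tested. Their shares ran from 1.17% to 99.6%, with a median of 59.6%, and the GC donor was the major one at 12 of them. Of these 23, 7 had a share under 10%, 7 a share between 10% and 90%, and 9 a share over 90%.

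**Figure D2:**
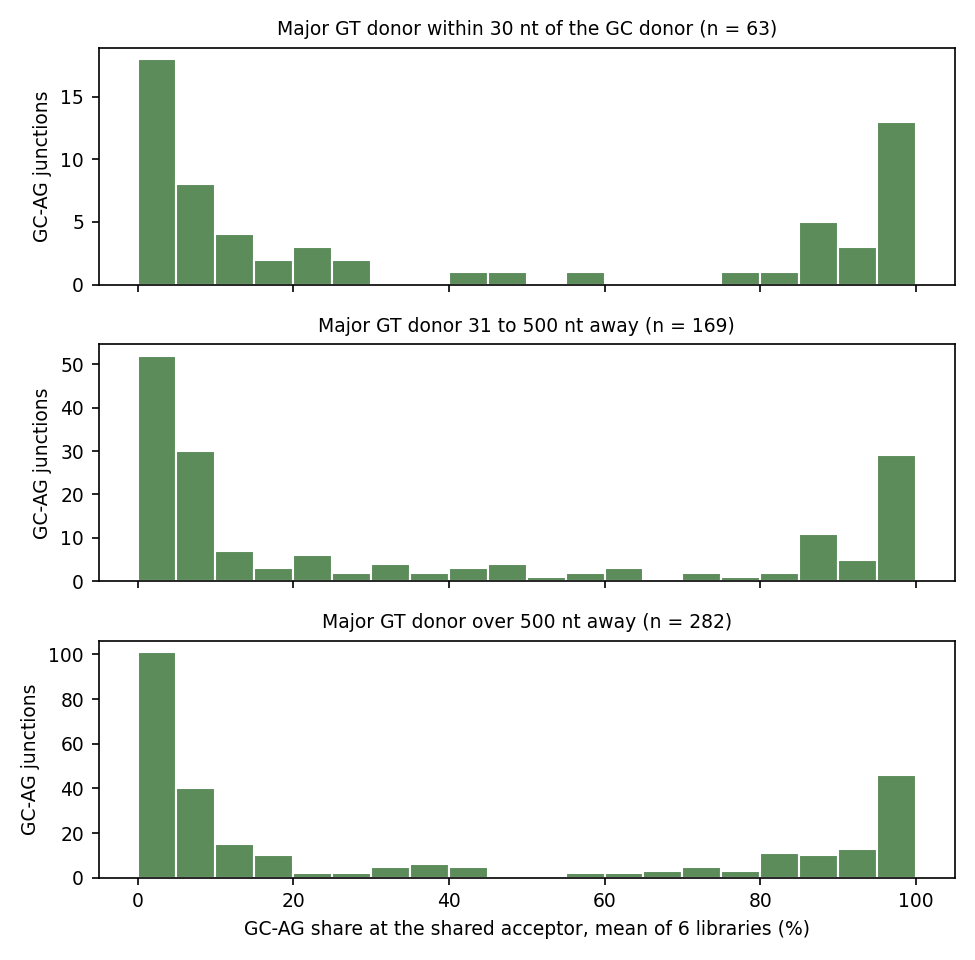
Number of tested GC-AG junctions (vertical axes) by their share of reads at the shared acceptor, as the mean of 6 libraries in percent (horizontal axis), in panels for a major GT donor within 30 nt (63 junctions), 31 to 500 nt away (169) and over 500 nt away (282). In each panel the shares gather near both ends of the scale, and most junctions lie below 50%.

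Averaged over the GC donors, S34F and WT libraries had nearly the same shares. The difference, S34F minus WT, had a median of -0.0231 percentage points over the 514 introns, with 251 higher and 263 lower in S34F. Over all junctions tested the median difference was 0.00424 percentage points. Rises and falls cancel in such signed values. Without its sign, the difference had a median of 1.42 percentage points over the 514 introns and 1.43 over all junctions tested. It was at least 10 percentage points at 33 of the 514, or 6.42%, against 6.02% of all. The mean share over the 514 introns was 36.9% ± 0.535 in WT and 36.9% ± 0.401 in S34F (SD, n = 3). Within the classes of distance, the same means were 41.7% ± 0.173 and 41.9% ± 0.624 for a GT donor within 30 nt, 36.2% ± 0.405 and 36.7% ± 0.469 for one at 31 to 500 nt, and 36.2% ± 0.861 and 35.8% ± 0.584 for one farther off. In each class the groups overlapped.

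A donor choice was called when the adjusted p of edgeR's quasi-likelihood test was under 0.05 over the whole table and the group means differed by at least 10 percentage points. By that rule 5 of the 514 GC-AG introns, or 0.973%, were called, where 0.929% of all junctions tested were. The GC share was higher in S34F at 3 of them (0.453% of all junctions tested were called in that direction) and lower at 2 (0.476%). Annotated GT-AG junctions were called at 1.07%, so that the GC-AG introns stood near the background. An unadjusted p under 0.05 was reached by 63 of the 514, or 12.3%, against 17.3% of all junctions tested. The groups did not overlap at 89, or 17.3%, against 22.5% of all. The count moved with single libraries, and so did the share called over all junctions tested. It was 15 of 476 (3.15%) without WT replicate 1, with 4 of them among the 5, where 2.77% of all junctions were called. It was 1 without WT replicate 2 (0.197% of all), 2 without WT replicate 3 (0.4% of all), 0 without S34F replicate 1 (0.205% of all), 1 without S34F replicate 2 (0.133% of all) and 0 without S34F replicate 3 (0.0103% of all). DESeq2 on the same counts called 0 GC-AG introns and 46 of all 47891 junctions (0.0961%), and gave the introns on chromosomes 14 and 5 described below no adjusted p. With limma 0 GC-AG introns and 0 of all junctions (0.0%) were called. An unadjusted p under 0.05 was reached by 31 of the GC-AG introns with DESeq2 and 55 with limma. The share of all junctions at that level is not given here for these methods, so the counts have no background.

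The calls all fell in the class of distant GT donors. Of the 282 tested introns of that class 5 were called, and of the 169 at 31 to 500 nt and the 63 within 30 nt none was. An unadjusted p under 0.05 was reached by 41, 21 and 1 introns of these classes, or 14.5%, 12.4% and 1.59%. The difference between the classes was not tested. Over all junctions tested, at any distance, 0.929% were called and 17.3% reached an unadjusted p under 0.05. Shares of all junctions by distance are not given here. The class counts therefore cannot show whether the pattern is particular to GC-AG introns. The 23 introns with a GT donor 4 nt downstream had no unadjusted p under 0.05 by edgeR, a largest difference of 7.45 percentage points in either direction, and a smallest adjusted p of 0.390. With only GT donors at most 30 nt away as competitors, a setting chosen after the data were seen, 71 introns could be tested and 0 were called by edgeR, as were 0 of all 3401 junctions tested in that way (0.0%).

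**Figure D3:**
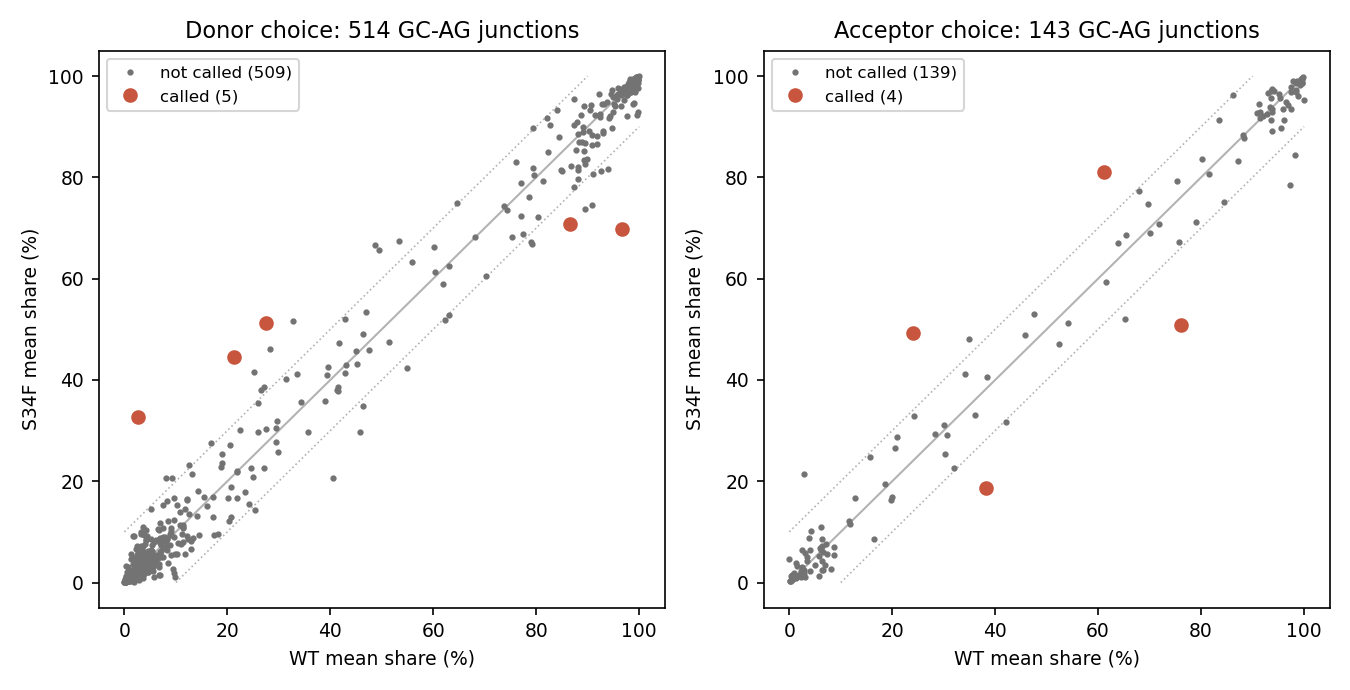
Mean share of reads in the 3 S34F libraries (vertical axes, percent) against that in the 3 WT libraries (horizontal axes, percent) for 514 GC-AG junctions tested in donor choice (left) and 143 in acceptor choice (right), with solid lines of equality and dotted lines 10 percentage points from it. Most points lie between the dotted lines, and the called junctions, 5 on the left and 4 on the right, are marked in red.

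The smallest adjusted p among the called donors belonged to a short intron of 219 nt at chr14:105639599-105639817 on the minus strand. Its GC donor took 3 of 60, 0 of 43 and 1 of 37 reads at the acceptor in WT replicates 1 to 3. In S34F it took 12 of 27, 4 of 28 and 19 of 48 reads. The S34F libraries were all higher than the WT libraries, although S34F replicate 2 stood well below the other two. The count of 0 in WT replicate 2 allows a share of up to 6.98%. The mean share was 2.57% ± 2.50 in WT and 32.8% ± 16.2 in S34F (SD, n = 3), a rise of 3.99 ± 0.78 (SE) in log2 odds with an adjusted p of 0.00914 by edgeR. The competing reads came mainly, at 94.6%, from an annotated GT donor at 105642870 that lies 3053 nt upstream. The acceptor drew few reads, between 27 and 60 a library, and the adjusted p was 0.0545 without WT replicate 2, 0.0746 without S34F replicate 1 and 0.158 without S34F replicate 3. With multi-mapped reads counted as well, the rise was 2.44 in log2 odds, with an adjusted p of 0.0476 by edgeR.

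At chr5:141027088-141027534, an intron of 447 nt on the minus strand, the GC donor lost its near exclusive use of the acceptor. WT libraries gave 32 of 32, 18 of 20 and 22 of 22 reads to the GC donor. S34F libraries gave it 22 of 35, 26 of 37 and 57 of 75, without overlap between the groups. The mean share fell from 96.7% ± 5.77 to 69.7% ± 6.59 (SD, n = 3), by 3.65 ± 0.87 (SE) in log2 odds, with an adjusted p of 0.0283 by edgeR. The GC donor ended a 129 nt exon at 141027535 to 141027663, and the competing junction, which was unannotated, ran from the donor at 141028523 and skipped this exon. That skipping junction had 0, 2 and 0 reads in WT and 12, 11 and 18 in S34F. Reads that joined the same donor to the 129 nt exon, across an annotated junction, numbered 50, 26 and 16 in WT and 25, 23 and 74 in S34F. The adjusted p was 0.0532 without WT replicate 1, 0.093 without WT replicate 3, 0.105 without S34F replicate 1, 0.105 without S34F replicate 2 and 0.143 without S34F replicate 3.

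At chr11:70267687-70269045, an intron of 1359 nt on the plus strand, the share of a mostly used GC donor was again lower in S34F. The GC donor took 179 of 207, 219 of 245 and 129 of 154 reads in WT. It took 183 of 268, 136 of 181 and 389 of 564 reads in S34F, and every S34F library was lower than every WT library. The mean share fell from 86.5% ± 2.81 to 70.8% ± 3.77 (SD, n = 3), by 1.44 ± 0.39 (SE) in log2 odds, with an adjusted p of 0.0475 by edgeR. Here too the GC donor ended a short exon, of 111 nt at 70267576 to 70267686, and 88.0% of the competing reads skipped it from the annotated donor at 70266617. The skipping junction had 26, 23 and 17 reads in WT and 76, 42 and 154 in S34F, and entry into the exon had 193, 240 and 150 and then 181, 126 and 337. The call lay close to the threshold: the adjusted p was 0.181 without WT replicate 2, 0.062 without WT replicate 3, 0.145 without S34F replicate 1, 0.108 without S34F replicate 2 and 0.23 without S34F replicate 3.

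An exon ended by a GC donor was also at chr6:27094242-27095042, an intron of 801 nt on the minus strand, where the change ran the other way. The GC donor took 111 of 472, 161 of 545 and 83 of 279 reads in WT and 171 of 279, 156 of 296 and 252 of 631 in S34F. All S34F libraries were above all WT libraries and were the more spread. The mean share rose from 27.6% ± 3.54 to 51.3% ± 10.7 (SD, n = 3), by 1.46 ± 0.38 (SE) in log2 odds, with an adjusted p of 0.0423 by edgeR. The competing reads came from annotated GT donors at 27100303 (72.8%) and 27100145 (27.0%). The junction from 27100303 into the 138 nt exon at 27095043 to 27095180 was unannotated and had 91, 159 and 89 reads in WT and 193, 169 and 283 in S34F. The exons that ended at called GC donors, of 129, 111 and 138 nt, had lengths that are multiples of 3, as had 97 of the 240 such exons of tested introns (40.4%). The adjusted p here was 0.0994 without WT replicate 2, 0.0677 without WT replicate 3, 0.188 without S34F replicate 1, 0.157 without S34F replicate 2 and 0.122 without S34F replicate 3.

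The remaining called donor lay upstream of the GT donor instead of downstream. At chrX:23751335-23754035, an intron of 2701 nt on the minus strand, the GC donor took 34 of 184, 26 of 179 and 47 of 152 reads in WT. In S34F it took 96 of 182, 43 of 133 and 125 of 258. The groups did not overlap, though WT replicate 3 and S34F replicate 2 lay close together. The mean share rose from 21.3% ± 8.56 to 44.5% ± 10.8 (SD, n = 3), by 1.63 ± 0.43 (SE) in log2 odds, with an adjusted p of 0.0438 by edgeR. Of the competing reads 91.4% came from an annotated GT donor at 23752457, 1578 nt downstream. That donor ends an exon that the GC-AG intron skips, and the same reads enter the acceptor choice below. The adjusted p was 0.182 without WT replicate 2, 0.192 without S34F replicate 1, 0.0886 without S34F replicate 2 and 0.255 without S34F replicate 3.

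**Figure D4:**
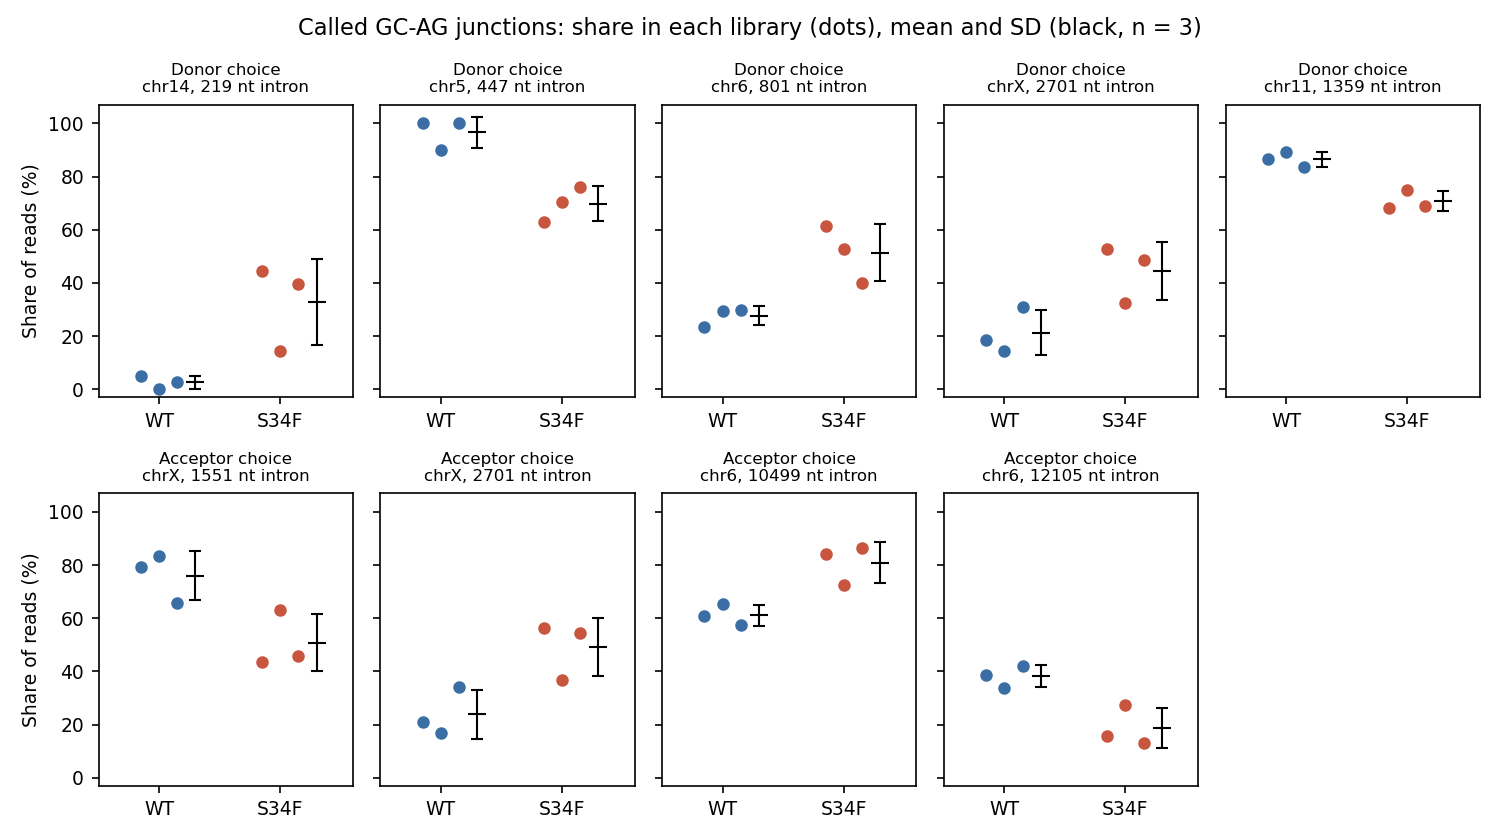
Share of reads in percent (vertical axes) in each WT and S34F library for the 5 called GC-AG junctions of donor choice and the 4 of acceptor choice, titled by chromosome and intron length. Coloured dots are libraries and black bars are the mean and SD (n = 3); in each panel the WT and S34F dots do not overlap, and the 4 acceptor panels form 2 mirrored pairs.

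An adjusted p under 0.05 without a difference of 10 percentage points was given by edgeR for 4 further introns, which brings the count to 9 of 514, or 1.75% (2.02% of all junctions tested). The 3 with the smallest p are described here as not called. At chr6:167360228-167362057, an intron of 1830 nt on the minus strand, the GC donor took 831 of 840, 934 of 941 and 586 of 595 reads in WT and 249 of 259, 373 of 390 and 546 of 597 in S34F. Its share was 98.9% ± 0.386 in WT and 94.4% ± 2.57 in S34F (SD, n = 3), with an adjusted p of 0.00935 by edgeR. It ended a 56 nt exon, and 82.5% of the competing reads were of an unannotated junction that skipped it from 167365975, with 7, 2 and 4 reads in WT and 10, 16 and 46 in S34F. The adjusted p was 0.0628 without WT replicate 2, 0.0567 without S34F replicate 2 and 0.172 without S34F replicate 3. At chr15:75195128-75197004, an intron of 1877 nt on the minus strand, the GC donor took 96 of 96, 86 of 87 and 52 of 52 reads in WT and 77 of 83, 57 of 61 and 129 of 142 in S34F. Its share was 99.6% ± 0.664 and 92.4% ± 1.35, with an adjusted p of 0.0307 by edgeR. The annotated junction from 75197494 that skipped the 49 nt exon before it had no read in the 3 WT libraries and 6, 4 and 11 in S34F. The adjusted p passed 0.05 without any library but WT replicate 1, at 0.0709 without WT replicate 2, 0.0823 without WT replicate 3, 0.0831 without S34F replicate 1, 0.0956 without S34F replicate 2 and 0.178 without S34F replicate 3. In both introns the GC donor took over 90% of the reads in every library.

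The last of these was a rarely used GC donor, at chr11:66203584-66204286, an intron of 703 nt on the minus strand. It took 9 of 790, 17 of 721 and 15 of 652 reads in WT and 0 of 486, 0 of 659 and 5 of 990 in S34F. The zeros allow shares of up to 0.617% and 0.455%. The mean share was 1.93% ± 0.688 in WT and 0.168% ± 0.292 in S34F (SD, n = 3), with an adjusted p of 0.0286 by edgeR. Reads that entered the 94 nt exon before this donor numbered 22, 20 and 11 in WT and 1, 1 and 5 in S34F, so that both junctions of the exon were low in the same libraries. The adjusted p was 0.101 without WT replicate 2, 0.0753 without WT replicate 3, 0.117 without S34F replicate 1, 0.143 without S34F replicate 2 and 0.0891 without S34F replicate 3.

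Introns whose GC and GT donors were used about equally in WT had much room to move, and none of the 8 nearest to 50% was called, with adjusted p from 0.271 to 0.958 by edgeR. At chr1:38357127-38397584, whose GT donor lies 240 nt downstream, the GC donor took 17 of 39, 19 of 37 and 21 of 41 reads in WT and 31 of 44, 14 of 21 and 39 of 62 in S34F. The groups did not overlap, with means of 48.7% ± 4.44 and 66.7% ± 3.78 (SD, n = 3), and the adjusted p by edgeR was 0.271. At chr11:65767953-65769510 the shares were 49.4% ± 11.05 and 65.6% ± 8.34, again without overlap and with an adjusted p of 0.436 by edgeR. The other 6 overlapped between the groups. At chr1:234743599-234744240, with the major GT donor 48 nt downstream, the reads were 202 of 281, 59 of 157 and 68 of 135 in WT and 167 of 245, 112 of 159 and 191 of 301 in S34F. WT replicate 1 was above all other libraries there and WT replicate 2 below them. At chrX:70357234-70357407, with the GT donor 9 nt downstream, the GC donor took 26 of 51, 22 of 54 and 19 of 40 reads in WT and 26 of 55, 19 of 33 and 60 of 141 in S34F. The shares of 46.4% ± 5.21 and 49.1% ± 7.68 (SD, n = 3) differed by less than the spread between libraries.

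The 4 others near 50% also overlapped between the genotypes and were not called. Their acceptors drew between 21 and 167 reads a library, and the lack of a call does not show that the shares were alike. At chr20:3888783-3891223 the shares were 51.5% ± 9.01 in WT and 47.6% ± 2.15 in S34F. At chr11:94226073-94226956 they were 47.6% ± 6.38 and 45.9% ± 4.57. At chr1:235658139-235659495 they were 46.4% ± 11.3 and 34.8% ± 10.3. At chr11:65767878-65769510, which uses the same GC donor as the intron that ends at 65767953, they were 46.9% ± 22.6 and 53.5% ± 3.21 (SD, n = 3).

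Acceptor choice was measured from the other end, as the share of a GC donor's reads that went to each of its acceptors. The same depth rule left 143 GC-AG introns, from 67 GC donors, and 66 of them were also tested in donor choice. Of the 3870 introns 3279 entered neither test. The median share was 36.9%, and the median difference, S34F minus WT, was 0.00589 percentage points (73 higher and 70 lower in S34F), against 0.00231 over the 51522 junctions tested. By the same rule 4 of the 143 were called, or 2.8%, where 2.11% of all junctions tested were. Of these, 2 were higher in S34F and 2 lower, where 1.02% and 1.09% of all junctions were, but they are the 2 acceptors of each of 2 GC donors, whose shares mirror each other. An unadjusted p under 0.05 was reached by 24, or 16.8% (19.9% of all), and the groups did not overlap at 31, or 21.7% (25.2% of all). The count of 4 was 7 without WT replicate 1, of which 4 were among those called with all libraries. It was 2 without WT replicate 2 and 2 without WT replicate 3. Without S34F replicate 1 it was 1, an intron not called with all libraries. It was 4 without S34F replicate 2 and 0 without S34F replicate 3. Over all junctions the share called was 4.15% without WT replicate 1, 0.977% without WT replicate 2, 1.3% without WT replicate 3, 1.03% without S34F replicate 1, 0.676% without S34F replicate 2 and 0.185% without S34F replicate 3. DESeq2 called 0 of the GC-AG introns and 150 of all 51522 junctions (0.291%), and limma called 0 of both (0.0%). An unadjusted p under 0.05 was reached by 16 GC-AG introns with DESeq2 and 24 with limma. The share of all junctions at that level is again not given here.

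The first of the 2 donors was the GC donor on chromosome X already described, at 23754035. To its near acceptor, at 23752485, it gave 129 of 163, 130 of 156 and 90 of 137 reads in WT and 74 of 170, 74 of 117 and 105 of 230 in S34F. Every S34F library was lower than every WT library. The share of the near acceptor fell from 76.1% ± 9.22 to 50.8% ± 10.8 (SD, n = 3), by 1.69 ± 0.42 (SE) in log2 odds, with an adjusted p of 0.0207 by edgeR. The far acceptor, at 23751335, took the remaining reads. Between the acceptors lies a 27 nt exon, at 23752458 to 23752484, which ends at the GT donor 23752457. Its inclusion, the mean of both inclusion junctions over that mean plus the skipping junction, was 79.9%, 84.0% and 66.7% in WT and 44.2%, 64.3% and 46.6% in S34F, with means of 76.9% ± 9.08 and 51.7% ± 10.996 (SD, n = 3). So small an exon leaves short read overhangs, and whether that bears on its counts was not tested. Requiring a largest overhang of at least 15 nt drops whole junctions and not single reads. The difference at the near acceptor was -25.2 percentage points with and without this rule. The rule therefore cannot show whether short overhangs bear on the counts. With it, the adjusted p of the acceptor choice was 0.021 by edgeR. It was 0.0971 without WT replicate 2, 0.111 without S34F replicate 1 and 0.165 without S34F replicate 3. Over the alternatives tried it ran from 0.00746 to 0.203.

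The second was the GC donor at 127648146 on chromosome 6, minus strand, and here the near acceptor gained. The acceptor at 127637648, 10499 nt from the donor, took 136 of 224, 189 of 289 and 96 of 167 reads in WT and 203 of 241, 178 of 246 and 482 of 558 in S34F, and all S34F libraries were higher. Its share rose from 61.2% ± 3.98 to 81.0% ± 7.55 (SD, n = 3), by 1.49 ± 0.38 (SE) in log2 odds, with an adjusted p of 0.0264 by edgeR. The far acceptor, at 127636042, went from 38.2% ± 4.04 to 18.7% ± 7.52, with an adjusted p of 0.0272 by edgeR. The exon between them, of 53 nt at 127637595 to 127637647, was included at 60.1%, 62.9% and 56.8% in WT and 83.3%, 71.0% and 86.3% in S34F, with means of 59.9% ± 3.05 and 80.2% ± 8.11. Its length is not a multiple of 3. Read from the donor side, the long intron of 12105 nt took 40.5% ± 2.36 and 20.7% ± 8.59 of the reads at its acceptor, with an adjusted p of 0.0513 by edgeR, just past the threshold. The adjusted p of the near acceptor was 0.0591 without WT replicate 3, 0.108 without S34F replicate 1 and 0.2 without S34F replicate 3.

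Both calls from the acceptor side were therefore exons entered through a GC-AG intron, the 27 nt exon with lower and the 53 nt exon with higher inclusion in S34F. An adjusted p under 0.05 alone was reached by 8 of the 143 introns, or 5.59% (4.63% of all junctions tested), and the other 4 belong to 2 more GC donors, not called because their differences were small. From the GC donor at 134023183 on chromosome 11, an 88 nt intron led to the acceptor at 134023096, and the remaining reads went to 134020479. That far acceptor had 0 of 111, 0 of 146 and 0 of 85 reads in WT, which allow shares of up to 2.70%, 2.05% and 3.53%. In S34F it had 1 of 76, 4 of 72 and 12 of 167 reads, or 4.69% ± 3.03 (SD, n = 3), with an adjusted p of 0.0163 by edgeR. The share in S34F replicate 1 lay below these limits and those in S34F replicates 2 and 3 above them. The adjusted p was 0.0664 without WT replicate 2 and 0.0676 without S34F replicate 2, and without S34F replicate 3 the junction had too few reads for the test. From the GC donor at 47351590 on chromosome 13, the acceptor at 47349828 had 7 of 683, 7 of 1021 and 19 of 918 reads in WT and 20 of 892, 20 of 413 and 55 of 1194 in S34F. These shares were 1.26% ± 0.721 and 3.90% ± 1.44 (SD, n = 3), without overlap, with an adjusted p of 0.0434 by edgeR. The adjusted p was 0.178 without WT replicate 2, 0.0508 without S34F replicate 1, 0.16 without S34F replicate 2 and 0.236 without S34F replicate 3.

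Read counts of GC-AG junctions relative to all annotated junctions (abundance) are the only measure for introns with no competing donor or acceptor. They combine the amount of the transcript with how it was spliced, and fewer cells of a kind cannot be told apart from less RNA per cell. At least 10 reads in at least 3 libraries were counted for 1016 of the 3870. By edgeR with TMM scaling, 0 of the 1016 had an adjusted p under 0.05, where 0.198% of the 114277 annotated junctions tested did (0.0823% higher and 0.116% lower in S34F). The smallest adjusted p was 0.0681. DESeq2 called 6 of the 1016, or 0.591%, with 3 higher and 3 lower in S34F, and 1.15% of all annotated junctions. An unadjusted edgeR p under 0.05 was reached by 142, or 14.0% (75 higher and 67 lower in S34F), against 13.6% of all. The median log2 fold change was 0.02 over the GC-AG junctions and 0.01 over all annotated ones. Among the introns named above that were deep enough for this test, the smallest adjusted p was at chr6:167360228-167362057, with 33.5 ± 3.68 reads per 1000000 unique spliced reads in WT and 15.05 ± 5.11 in S34F (SD, n = 3), a log2 fold change of -1.15 with an adjusted p of 0.0978 by edgeR. The largest log2 fold change in size, 1.16, was that of the junction to 47349828 on chromosome 13, with an adjusted p of 0.323 by edgeR. At the chromosome 6 intron the groups did not overlap, and both the share of the GC donor and the reads over it were lower in S34F.

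The 8 most-read GC-AG junctions carried 26.1% of the reads over all GC-AG introns, and none passed the test, with log2 fold changes from -0.36 to 0.64 and adjusted p from 0.274 to 0.954 by edgeR. The most-read, at chr2:55460554-55461254, an intron of 701 nt on the plus strand, had 16697, 17163 and 15105 reads in WT and 15270, 19289 and 19465 in S34F. The next, at chr5:180668640-180669173, had 9644, 9545 and 7712 reads in WT and 9100, 7889 and 16520 in S34F. This GC donor has an annotated GT donor 4 nt downstream and another 112 nt upstream. It took 99.3% ± 0.0272 of the reads at its acceptor in WT and 99.3% ± 0.152 in S34F (SD, n = 3), so a GT donor 4 nt away was hardly used in either genotype. The highest fold change of the 8 was at chr21:33032155-33036102, an intron of 3948 nt with 87.0 ± 20.3 reads per 1000000 unique spliced reads in WT and 139 ± 48.3 in S34F, and an adjusted p of 0.274 by edgeR. Its GC donor took 99.4% ± 0.0555 and 99.2% ± 0.22 of the reads at the acceptor. The remaining 5 were at chr5:72798427-72798740, chr5:81571954-81572269, chr12:53344691-53345264, chr15:72499619-72500961 and chr2:198358975-198359380.

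Over whole libraries, GC-AG junctions held a slightly larger share of annotated unique reads in S34F. That share was 0.677%, 0.697% and 0.697% in WT and 0.717%, 0.699% and 0.722% in S34F, with means of 0.691% ± 0.0118 and 0.713% ± 0.0119 (SD, n = 3). The groups did not overlap, but WT replicate 3 and S34F replicate 2 were within counting error, with 95% Clopper-Pearson intervals of 0.694% to 0.701% and 0.695% to 0.703%. At the 2180 acceptors that GC-AG and GT-AG introns share, GC-AG reads made up 27.6%, 29.5% and 29.1% of the reads in WT and 30.4%, 28.2% and 31.4% in S34F. The means were 28.7% ± 1.02 and 30.003% ± 1.67, and the groups overlapped. The difference of 1.28 percentage points shrank to 0.667 without the 10 most-read acceptors. Unannotated GC-AG junctions, of which 16631 were listed, took 0.0114% ± 0.000769 of unique reads in WT and 0.0123% ± 0.00164 in S34F, again with overlap.

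**Figure D5:**
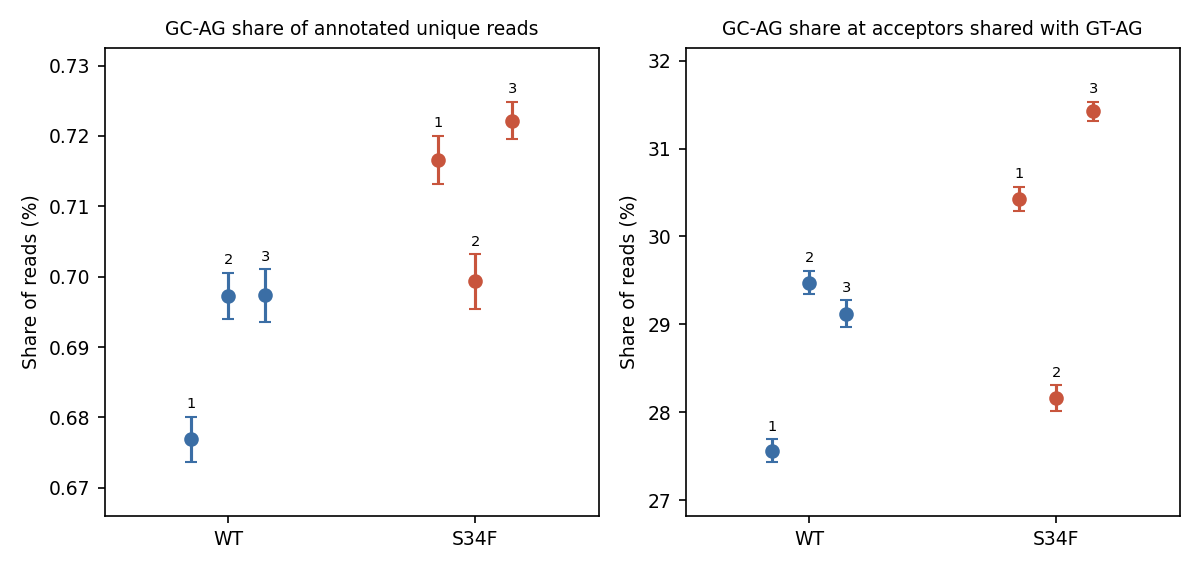
Share of annotated unique reads that crossed GC-AG junctions (left, percent) and share of GC-AG reads at acceptors shared with GT-AG introns (right, percent) in each WT and S34F library, numbered by replicate, with 95% Clopper-Pearson intervals on reads; neither axis starts at 0. On the left the WT libraries lie between 0.677% and 0.697% and the S34F libraries between 0.699% and 0.722%, and on the right the groups overlap.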

How the data were processed

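The deposited values were counts of unique and multi-mapped reads per splice junction, with no normalization visible, in 1 table of 9 columns per library. The authors used STAR with hg19, per the submitters' processing notes; the STAR version, annotation and junction filters are not given in the sources used here. Libraries were grouped by the labelled genotype. The introns and lists were chosen with earlier results of these data known.

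Junctions were matched between libraries by chromosome and both intron ends. Donor choice set each junction against the summed GT-AG junctions of its acceptor, and acceptor choice against all other junctions of its donor, with at least 20 reads in every library and 10 on each side. Both were tested over the whole table with edgeR 4.0.16 (R 4.3.3, quasi-likelihood F-test, robust, legacy dispersion). The model had an intercept per library, count type, and count type by S34F. The intercept removes depth and the summed level of the competing junctions. It does not remove a change in the ratio of 2 transcripts where the competing junctions belong to different ones. Whether they do was not tested. SE is the absolute coefficient over the square root of F. Abundance used edgeR with TMM. All p-values were adjusted by Benjamini-Hochberg. The scripts were tested on simulated data. The 2 library-wide shares are given without a test. Introns named are the called ones, those of smallest p up to 8 per choice, the 8 most read, and the 8 nearest 50% in WT; an abundance rule named none. Alternatives were DESeq2 1.42.0, limma 3.58.1 (pseudocount 0.5), filters, reads counted, comparators, thresholds, the replicate number as a block and each library left out. Intervals, and limits for a count of 0 (3 reads), cover counting error only. Other steps used scipy 1.17.1, numpy 2.4.6, pandas 2.3.3 and Python 3.11.15. A gene list for splice site recognition and lists of cell type markers were not used here, since they need an annotation of hg19.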

Additional observations from a re-analysis of the deposited data

How the results depend on the processing

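The differences in library-wide share, and those of the introns named for their small p, kept their direction wherever an alternative gave a value. Those introns were picked by p and refitted on largely the same reads, so this is not an independent check. Counts of calls have no direction, and many of them moved. The count of called donor choices was 5 of 514 (0.973%, against 0.929% of all junctions tested). Shares of all junctions tested follow in brackets. The count was 9 with no minimum difference (2.02%), 0 with DESeq2 (0.0961%) and 0 with limma (0.0%). It was 1 of 1801 without the depth filter (0.0639%) and 3 of 354 with at least 50 reads in every library (0.894%). With the replicate number as a block it was 2 (0.689%). It was 2 with edgeR's newer dispersion estimate (0.779%) and 0 of 71 with GT donors within 30 nt only (0.0%), both chosen after seeing the data. With 1 library left out it was 0 to 15, with the shares given above. It stayed within 1.5 times 5 in 4 settings. A minimum of 20 percentage points gave 4 (0.447%) and multi-mapped reads gave 4 of 783 (0.648%). A 15 nt overhang gave 4 of 502 (0.925%). Annotated comparators gave 7 of 427 (1.28%), of which 4 were among the main calls. Of acceptor choices, 4 of 143 were called (2.8%, against 2.11% of all junctions tested). The count was 8 with no minimum difference (4.63%), 2 with 20 percentage points (0.918%), 0 with DESeq2 (0.291%) and 0 with limma (0.0%). It was 2 of 493 without the depth filter (0.14%). Annotated comparators gave 7 (2.71%), the newer dispersion estimate 7 (2.08%) and the block 5 (1.79%), each with 4 among the main calls. Leaving out 1 library gave 0 to 7, with the shares given above. Abundance calls were 0 of 1016 (0.198% of all annotated junctions tested). They were 6 with DESeq2 (1.15%), 1 with library totals (0.335%) and 0 with the block (0.0403%). Without the depth filter 36 of 3155 were called (1.14%, against 2.35% of all). With 1 library left out the calls were 0 to 5, where 0.0% to 0.516% of all were called. The difference in the share of annotated unique reads, 0.0222 percentage points, ran from 0.0154 to 0.0289 with 1 library left out, and that of the pooled share, 1.28, from 0.573 to 2.20; the pooled difference was 0.680 with annotated comparators and 0.00201 as an unweighted mean over tested introns. Same-numbered libraries did not deviate together, with correlations from -0.0860 to -0.0190, against -0.0339 to 0.0662 for libraries of different numbers. Correlations this small, from 3 libraries a group, cannot decide whether the numbers pair samples. The causes of these changes were not tested. Of the 3870 introns 3279 entered neither choice test, for want of reads or of a competing junction.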
